A study of Danio rerio with 15 samples.

Results

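The 10 genes described here encode proteins that sense, release, store and recover calcium in zebrafish muscle. They are cacna1sa and cacna1sb, ryr1a, ryr1b and ryr3, casq1a, casq1b and casq2, and atp2a1 and atp2a1l. The genes were picked by symbol, but with earlier results of these data known. Counts of members set beside shares of all genes are therefore descriptions and not a blind test. All 10 of 10 were present among the 32520 genes of the gene table, and all 10 passed the filter on low counts that left 21477 genes for testing. The libraries were made from whole bodies of AB wild-type larvae at 120 hours post-fertilization. Larvae were either untreated, as the control group, or exposed to 0.1, 1, 5 or 10 µM perfluorooctanesulfonic acid (PFOS), a persistent fluorinated surfactant, with 3 libraries in each of the 5 groups. Each library held between 11956657 and 19978125 estimated counts. No label states when exposure began or if the libraries of a group were separate clutches, and the p-values therefore reflect only the spread from library to library, which may be technical. The 10 µM libraries are named by the numbers 2, 3 and 4 that their columns carry.

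In a muscle fibre, the L-type calcium channel of the surface membrane senses the action potential and opens the ryanodine receptors of the sarcoplasmic reticulum, the calcium store inside the fibre. Calcium held in that store by calsequestrin then flows into the cytosol and starts contraction, and the SERCA1 pump returns it to the store so that the fibre can relax. Teleost fish carry paired copies of several of these genes, and in zebrafish ryr1a and cacna1sa are known from slow fibres while ryr1b and cacna1sb are known from fast fibres.

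In control larvae the pump genes stood far above the other members when levels were compared per length, as library-scaled counts (CPM) per kb of gene length. The SERCA1 gene atp2a1 had a mean level of 3110 ± 144 CPM per kb (SD, n = 3) and its copy atp2a1l had 652 ± 105 CPM per kb. The skeletal calsequestrins casq1b, at 68.4 ± 3.63 CPM per kb, and casq1a, at 67.1 ± 19.0 CPM per kb, overlapped across libraries, and casq2, the calsequestrin that is the main form in heart, followed at 40.9 ± 3.66 CPM per kb. Next in order were ryr3 at 28.2 ± 1.73, cacna1sb at 20.8 ± 3.06 and ryr1b at 12.2 ± 0.748 CPM per kb. The copies known from slow fibres were the lowest, with cacna1sa at 4.46 ± 0.494 and ryr1a at 4.11 ± 0.198 CPM per kb, and the ranges of these 2 overlapped. The ranges of all other neighbours in this order were apart in the controls.

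At 10 µM PFOS, 5 of the 10 genes fell against control and 0 rose, by edgeR's quasi-likelihood test with Benjamini-Hochberg adjustment over all tested genes. Over all genes, 6.65% fell and 7.78% rose in that comparison, 14.4% in all. The genes that fell were the skeletal calsequestrins casq1a and casq1b, the ryanodine receptor genes ryr1b and ryr3, and the channel gene cacna1sb. The median log2 fold change of the 10 genes was -0.39, against -0.01 for all tested genes. In 7 of the 10 genes all 3 of the 10 µM libraries lay below all 3 controls, which 18.3% of all tested genes also showed, and the other 3 (ryr1a, atp2a1 and atp2a1l) overlapped the controls. In 0 of the 10 did all 10 µM libraries lie above the controls, where 18.6% of all tested genes did. In RNA from whole larvae, fewer muscle cells and less RNA per muscle cell cannot be told apart.

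**Figure D1:**
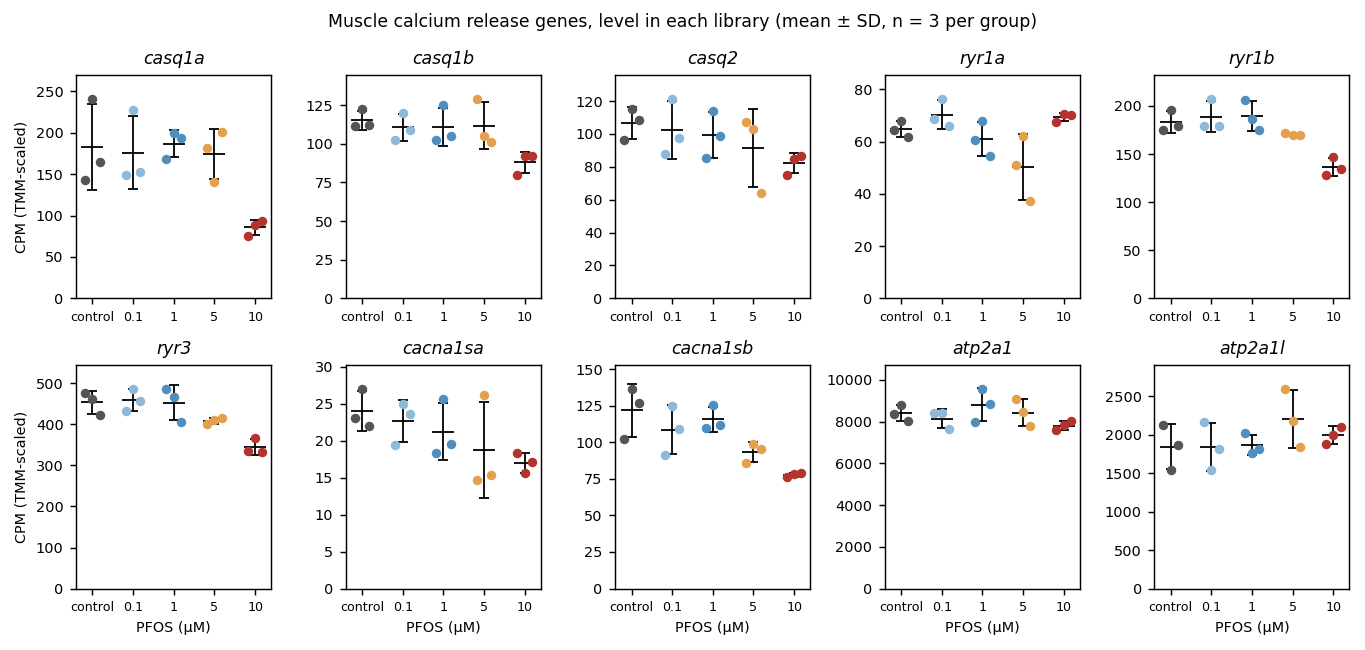
Level of each calcium release gene in every library, in CPM on TMM-scaled library sizes (y axis, from 0) against PFOS dose (x axis), with the bar and whiskers showing the mean ± SD of 3 libraries. The 10 µM libraries of casq1a, at 75.8 to 93.1 CPM, sit below all 12 other libraries, while those of ryr1a lie within the range of the controls and the 0.1 µM libraries.

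The channel subunit gene cacna1sb (ENSDARG00000042552, chromosome 8, 25767610 to 25808403, plus strand) encodes the fast-fibre voltage sensor. Positions are those of the authors' table, for which the labels and headers name no genome build. Levels of cacna1sb were 102, 137 and 127 CPM in controls 1, 2 and 3, and 76.2, 78.0 and 78.7 CPM in the 10 µM libraries numbered 2, 3 and 4. Libraries at 0.1 µM had 91.3, 125 and 109 CPM, those at 1 µM 110.0, 125 and 111 CPM, and those at 5 µM 85.8, 98.7 and 95.3 CPM. The 5 and 10 µM libraries were all below every control, and the 0.1 and 1 µM libraries overlapped the controls. The mean went from 122 ± 17.9 to 77.6 ± 1.29 CPM between control and 10 µM, and the log2 difference of -0.65 had an SE of 0.119 and an adjusted p of 0.00330. Its slow-fibre copy cacna1sa (ENSDARG00000029457, chromosome 22, 912450 to 968484, minus strand) had 23.1, 27.1 and 21.97 CPM in controls and 18.3, 15.6 and 17.1 CPM at 10 µM. The 10 µM values of cacna1sa were thus all under the controls, but the log2 fold change of -0.50 (SE 0.190) did not pass the test (adjusted p = 0.0884). Of 12 alternative settings cacna1sa passed in 1, with only the control and 10 µM libraries fitted (adjusted p = 0.00939). That fit called 4042 of all genes, where the main fit called 3098. The 5 µM libraries of cacna1sa were split, with 14.7 and 15.4 CPM in replicates 1 and 3 and 26.2 CPM in replicate 2.

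The fast-fibre ryanodine receptor gene ryr1b (ENSDARG00000023797, chromosome 18, 35491473 to 35736591, minus strand) had 175, 196 and 179 CPM in controls and 128, 147 and 135 CPM at 10 µM. At 0.1 µM it had 179, 208 and 179 CPM, at 1 µM 206, 187 and 175 CPM, and at 5 µM 171, 170.2 and 169.7 CPM. The 5 µM libraries of ryr1b were nearly equal to each other and just below the lowest control, and the 10 µM libraries were below all others. Between control and 10 µM the mean of ryr1b went from 184 ± 11.2 to 137 ± 9.28 CPM, or by -0.43 on the log2 scale (SE 0.0887, adjusted p = 0.00653). The receptor gene ryr3 (ENSDARG00000071331, chromosome 20, 29268444 to 29420713, minus strand), whose mammalian counterpart is also known from brain, had the highest level per length of the 3 receptors. Its levels were 478, 462 and 424 CPM in controls, 401, 409.6 and 415 CPM at 5 µM, and 334, 368 and 333 CPM at 10 µM. Libraries at 0.1 and 1 µM ranged from 405 to 487 CPM and overlapped the controls, whereas those at 5 and 10 µM did not. The log2 fold change of ryr3 at 10 µM was -0.40 (SE 0.0871, adjusted p = 0.00846).

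The slow-fibre receptor gene ryr1a (ENSDARG00000011422, chromosome 10, 33406819 to 33540336, plus strand) did not follow ryr1b and ryr3. It had 64.6, 68.0 and 61.8 CPM in controls and 67.6, 70.5 and 70.1 CPM at 10 µM, with a log2 fold change of 0.10 (SE 0.137, 95% interval -0.19 to 0.39, adjusted p = 0.673). At 5 µM the libraries of ryr1a ran lower and wider, with 51.2, 62.3 and 37.1 CPM in replicates 1, 2 and 3. Replicate 3 at 5 µM held the lowest ryr1a level of all 15 libraries and also the lowest casq2 level, 63.9 CPM. The same library had 5.38% of its counts from mitochondrial genes, against 3.85% to 4.63% in the other libraries, and the lowest summed level of the slow fibre list, 1462 CPM. The part of these features in the ryr1a value was not tested.

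Among the calsequestrins, casq1a (ENSDARG00000038716, chromosome 2, 38039857 to 38054482, plus strand) had the largest log2 fold change of the 10 genes. Its levels were 143, 241 and 164 CPM in controls and 75.8, 88.8 and 93.1 CPM at 10 µM. Libraries at 0.1 µM had 148, 227 and 152 CPM, those at 1 µM 168, 199.7 and 193 CPM, and those at 5 µM 182, 141 and 201 CPM. All 10 µM libraries of casq1a were below every other library, and the replicates numbered 2 were the highest of their group in control, 0.1 and 1 µM. The mean went from 183 ± 51.7 to 85.9 ± 8.98 CPM, or by -1.09 on the log2 scale (SE 0.194, adjusted p = 0.00289), and 1.15% of all tested genes had a lower log2 fold change. Without control replicate 2 the log2 fold change of casq1a was -0.84 (adjusted p = 0.0102).

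The copy casq1b (ENSDARG00000018105, chromosome 7, 73717581 to 73752955, minus strand) had 112, 122 and 112 CPM in controls and 79.9, 91.8 and 92.1 CPM at 10 µM. Its libraries at 0.1, 1 and 5 µM ranged from 101 to 129 CPM, all above the 10 µM libraries. The log2 fold change of casq1b at 10 µM was -0.39 (SE 0.109, adjusted p = 0.0275), and this call was lost without control replicate 1, 2 or 3 or without 10 µM library 2 or 4, where the adjusted p reached 0.135. The gene casq2 (ENSDARG00000008982, chromosome 9, 33097289 to 33107237, minus strand) had 96.2, 115 and 109 CPM in controls and 75.2, 84.6 and 86.4 CPM at 10 µM. These groups of casq2 did not overlap, but the log2 fold change of -0.38 (SE 0.169) did not pass the test (adjusted p = 0.148). Of 12 alternative settings casq2 passed in 1, with only the control and 10 µM libraries fitted (adjusted p = 0.0163), which called more of all genes too. As a share of the summed CPM per kb of the 3 calsequestrin genes, casq1a made up 37.6% ± 4.94 in controls and 27.3% ± 0.636 at 10 µM.

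The pump genes were the members with the most counts. Levels of atp2a1 (ENSDARG00000020574, chromosome 3, 26081343 to 26157066, plus strand) were 8386, 8797 and 8019 CPM in controls and 7583, 7817 and 8033 CPM at 10 µM. The groups overlapped by a narrow margin, and the log2 fold change of -0.10 (SE 0.0912, 95% interval -0.30 to 0.09) did not pass the test (adjusted p = 0.474). The copy atp2a1l (ENSDARG00000035458, chromosome 12, 13244149 to 13263658, plus strand) had 2128, 1535 and 1869 CPM in controls and 1876, 1999 and 2104 CPM at 10 µM. The log2 fold change of atp2a1l was 0.11 (SE 0.144, 95% interval -0.19 to 0.42, adjusted p = 0.649). Replicates numbered 2 were the lowest for atp2a1l in control, 0.1 µM and 1 µM, at 1535, 1539 and 1763 CPM, the reverse of their place for casq1a.

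**Figure D2:**
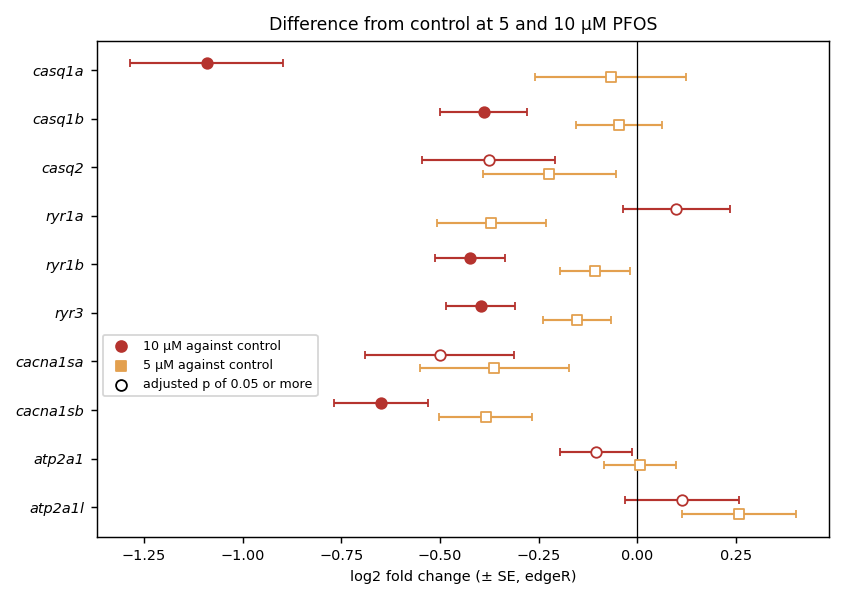
Log2 fold change against control (x axis) of each gene at 10 µM (circles) and 5 µM (squares), with whiskers of 1 SE from edgeR; filled symbols passed an adjusted p of 0.05. At 10 µM casq1a lies furthest left, at -1.09, and at 5 µM no symbol is filled.

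At 5 µM, 0 of the 10 genes passed edgeR's test against control, as did 0% of all tested genes, and DESeq2 also called 0 of the 10. At an unadjusted p of 0.05, edgeR named 2 of the 10 genes and 837 of the 21477. Those 2 were cacna1sb, with a log2 fold change of -0.38 (SE 0.118, unadjusted p = 0.00504), and ryr1a, with -0.37 (SE 0.138, unadjusted p = 0.0163), and the adjusted p was 0.999 for both. Without 5 µM replicate 3 the log2 fold change of ryr1a was -0.19, and that of cacna1sb was -0.40. The 5 µM libraries lay below all controls for 3 of the 10 genes (ryr1b, ryr3 and cacna1sb), and for 3.74% of all tested genes, and they lay above all controls for 0 of the 10 and for 3.41% of all tested genes. The gene casq1a had a log2 fold change of -0.07 (SE 0.191, 95% interval -0.47 to 0.34) at 5 µM.

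At 1 µM the log2 fold changes of the 10 genes ran from -0.18 to 0.07, and at 0.1 µM from -0.17 to 0.12. Both edgeR and DESeq2 called 0 of the 10 at these doses, and 0 of the 10 had an unadjusted edgeR p under 0.05, where 422 of all genes did at 1 µM and 243 at 0.1 µM. All 10 genes overlapped the controls at both doses, so that 0 of the 10 lay wholly below or above them. Over all tested genes, 2.85% lay below and 2.63% above all controls at 0.1 µM, and 3.46% below and 3.27% above at 1 µM. In the F test over the 4 doses, 4 of the 10 genes differed among groups (7.9% of all tested genes did), namely casq1a with an adjusted p of 0.00969, cacna1sb with 0.0140, ryr1b with 0.0141 and ryr3 with 0.0238.

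Between 5 and 10 µM, 3 of the 10 genes were lower at 10 µM and 1 was higher, where 7.34% and 8.06% of all tested genes were (15.4% in all). The log2 fold change of casq1a over this step was -1.02 (SE 0.194, adjusted p = 0.00402), close to its whole difference from control. For casq1b it was -0.34 (SE 0.109, adjusted p = 0.0441) and for ryr1b -0.32 (SE 0.0887, adjusted p = 0.0256). With only the 5 and 10 µM libraries fitted both calls were lost. The call for casq1b was also lost without 5 µM replicate 1 or any 10 µM library (adjusted p of up to 0.187), and that for ryr1b without 5 µM replicate 3 or 10 µM library 2 or 4 (adjusted p of up to 0.123). The gene ryr1a was higher at 10 µM than at 5 µM, by 0.47 on the log2 scale (SE 0.138, adjusted p = 0.0321), and this call was lost without 5 µM replicate 3, where the value was 0.29 (adjusted p = 0.113). Leaving out 5 µM replicate 1 or any 10 µM library, fitting only the 2 groups or removing the gene length trend also ended the call for ryr1a. The genes ryr3 (-0.24, adjusted p = 0.0686) and cacna1sb (-0.26, adjusted p = 0.144), both below the controls already at 5 µM, did not pass between 5 and 10 µM by edgeR, and DESeq2 called ryr3 there (adjusted p = 0.0334).

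The ratio between 2 copies within a library does not depend on how the libraries are scaled. Where both copies come from the same cells, it does not depend on the share of muscle RNA in each library either. Whether they do, casq1a and casq1b included, cannot be told in RNA from whole larvae. Reads that match both copies of a gene may have been divided between them by the authors' counting, for which the labels and headers name no tool. In controls 1, 2 and 3 there were 1.28, 1.97 and 1.47 casq1a counts for each casq1b count, and in the 10 µM libraries 0.949, 0.967 and 1.01. The remaining 9 libraries ranged from 1.35 to 1.98, so that the 10 µM libraries lay below all 12 others. On the log2 scale the ratio was 0.67 lower at 10 µM than in control, a difference of -0.67 (exact permutation test, two-sided, p = 0.1, the smallest that 3 against 3 libraries allow). Against the 12 libraries of the other 4 groups together the difference was -0.71 (exact permutation p = 0.0022, the smallest of 455 splits, and 0.0044 adjusted over 4 pairs). That test takes the 12 libraries of 4 dose groups as exchangeable, although same-numbered control, 0.1 and 1 µM libraries deviated together over all genes, and against control alone the p adjusted over the pairs was 0.2. In CPM the 10 µM libraries of casq1a already lay below all 12 others, so the ratio test is not separate support.

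The ratio of ryr1a to ryr1b moved the other way. It was 0.369, 0.347 and 0.345 in controls and 0.526, 0.480 and 0.520 at 10 µM, with the other 9 libraries between 0.219 and 0.382. The 10 µM libraries were above all 12 others, with a log2 difference of 0.53 from control (exact permutation p = 0.1, adjusted 0.2). From the other 4 groups together it was 0.61 (exact permutation p = 0.0022, adjusted 0.0044), again with those 12 libraries taken as exchangeable. Since the 10 µM libraries of ryr1b already lay below all 12 others in CPM, that test is not separate support either. The ryr1 copies and the channel copies are each known from different fibre types. Their ratios can thus also vary with the share of slow and fast fibre RNA, whose part was not tested. The slow to fast ratio of the channel genes, cacna1sa to cacna1sb, averaged 0.200 ± 0.0268 in controls and 0.220 ± 0.0198 at 10 µM. Its log2 difference was 0.16 from the other 4 groups (exact permutation p = 0.266, adjusted 0.266), and the groups overlapped. The atp2a1 to atp2a1l ratio averaged 4.65 ± 0.949 in controls and 3.92 ± 0.112 at 10 µM, a log2 difference of -0.16 from the other 4 groups (exact permutation p = 0.264, adjusted 0.266).

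**Figure D3:**
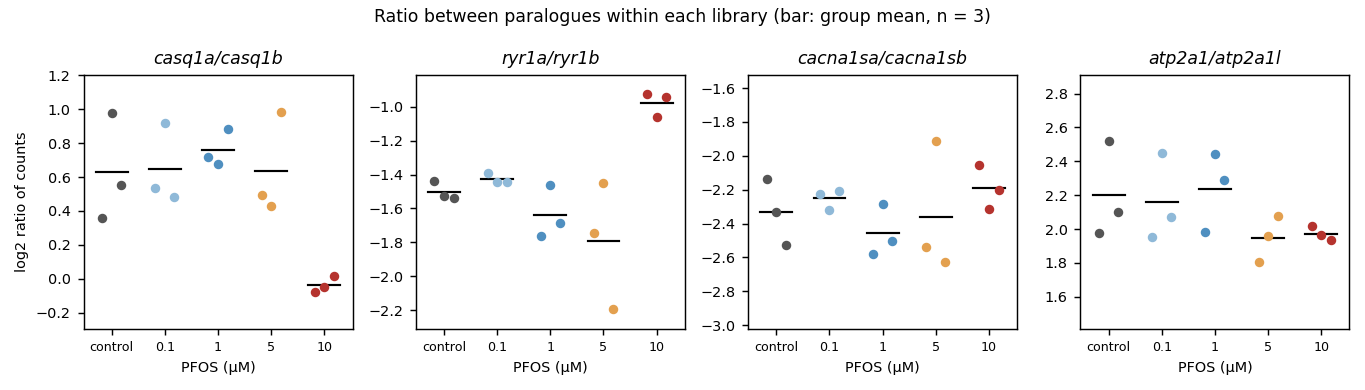
Log2 ratio of counts between 2 copies of a gene (y axis) in each library by PFOS dose (x axis), with a bar at the mean of 3 libraries. The 10 µM libraries stand apart from all 12 others for casq1a to casq1b (lower) and ryr1a to ryr1b (higher), and overlap them for the channel and pump pairs.

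Listed for the members were 8 transcripts of atp2a1, 3 each of atp2a1l and casq1b, 2 of ryr3 and 1 of each other gene. All were tested except atp2a1-206, atp2a1-207, atp2a1-208 and ryr3-202. Of the member transcripts, 6 passed edgeR's test at 10 µM against control (6.25% of all 32275 tested transcripts did), 5 lower and 1 higher. The 4 lower genes besides casq1b each had nearly all of their counts on a single listed transcript, which fell with the gene. Those 4 transcript calls therefore repeat the gene calls. Reads that match several transcripts of a gene may also have been divided among them by the authors' counting. Transcript counts and shares rest on that division. Of the 3 casq1b transcripts only casq1b-202 passed, with a log2 difference of -0.63 (SE 0.124, adjusted p = 0.0145). It held 48.5%, 44.6% and 44.4% of casq1b counts in controls and 39.9%, 40.0% and 36.6% at 10 µM, so the groups did not overlap. The 5 µM libraries, at 40.9% to 42.0%, also lay below all controls. The transcript atp2a1l-202 held 6.75% to 7.13% of atp2a1l counts at 10 µM and at most 5.68% in any other library. Its level did not pass edgeR's test (log2 fold change 0.48, SE 0.135, adjusted p = 0.0539).

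The transcript that rose was atp2a1-204, listed as a processed transcript without a coding sequence, with a log2 difference of 1.302 (SE 0.175, adjusted p = 0.00329). It had 570, 589 and 547 estimated counts in controls and 1445, 940 and 1476 at 10 µM, with 359 to 683 in the other 9 libraries. These counts were 0.487% of atp2a1 counts in controls and 1.29% at 10 µM. How reads shared with the other atp2a1 transcripts were divided is not known. The most abundant coding transcripts of the gene, atp2a1-202 (log2 fold change -0.15, adjusted p = 0.356) and atp2a1-201 (-0.07, adjusted p = 0.776), did not pass. Without 10 µM library 2 the number of member transcripts that passed was 1, and without library 4 it was 3. No count over all transcripts is given for these fits. With the same libraries left out, the genes called fell from 3098 to 1047 and 1548.

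**Figure D4:**
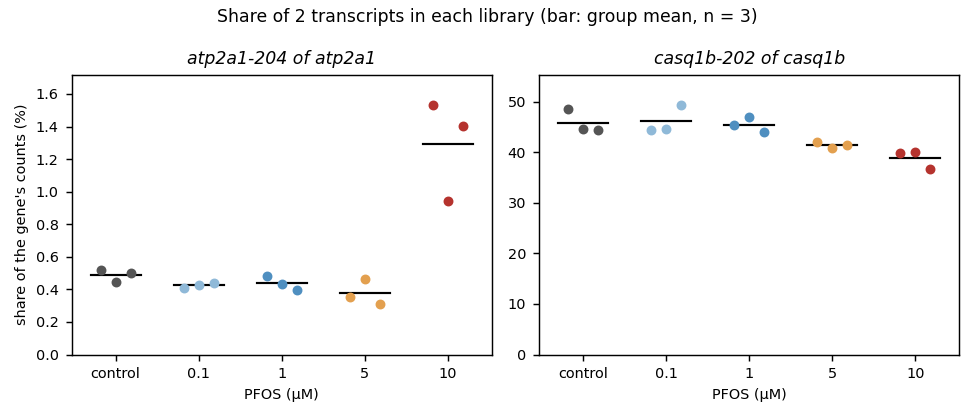
Share of the gene's estimated counts (y axis, percent, from 0) taken by atp2a1-204 and by casq1b-202 in each library, by PFOS dose (x axis), with a bar at the mean of 3 libraries. For atp2a1-204 the 10 µM libraries, at 0.941% to 1.54%, are above all 12 others, and for casq1b-202 they are below all 12 others, at 36.6% to 40.0%.

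Partners of the calcium release machinery were read from lists of genes. Over all tested genes 6.65% fell and 7.78% rose at 10 µM, which is the background for the counts from each list. Of 25 tested genes for the triad, the junction of surface and store membranes, 5 fell at 10 µM and 1 rose, with a median log2 fold change of -0.14. The junctophilin gene jph2, which tethers the 2 membranes, went from 212 ± 13.98 to 133 ± 7.25 CPM (log2 fold change -0.67, SE 0.128, adjusted p = 0.00416). Its relative jph1b fell by 0.36 on the log2 scale (adjusted p = 0.0169), and the gene for the counter-ion channel of the store, tmem38a, by 0.39 (adjusted p = 0.0178). The gene that rose was stim1b, a sensor of store calcium that opens surface channels, from 7.54 ± 0.507 to 12.05 ± 0.723 CPM (log2 fold change 0.67, SE 0.147, adjusted p = 0.00822). Of the 5 tested auxiliary subunits of the L-type channel, named after their values were seen, 2 fell, cacnb1 (-0.46, adjusted p = 0.0233) and cacng6b (-0.49, adjusted p = 0.0400). The other 3 did not pass, cacna2d1a (-0.27, adjusted p = 0.0786), cacng6a (-0.34, adjusted p = 0.141) and cacng1a (-0.17, adjusted p = 0.298).

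Of the 4 tested genes of the SERCA list, atp2a2b, a pump copy of the SERCA2 type known from heart and slow muscle, rose from 104 ± 12.3 to 143 ± 10.4 CPM (log2 fold change 0.46, adjusted p = 0.0213). The related atp2a2a, at 80.8 ± 8.004 CPM in controls and 112 ± 8.06 CPM at 10 µM, did not pass (0.47, adjusted p = 0.135), nor did atp2a3 (0.12, adjusted p = 0.526) or the pump inhibitor gene pln (-0.10, adjusted p = 0.832). Of 12 tested genes for calcium-binding proteins of the muscle cytosol, 2 fell, the troponin C gene tnnc2 (-0.38, adjusted p = 0.0115) and the parvalbumin gene pvalb6 (-0.35, adjusted p = 0.0266). The 2 most abundant parvalbumin genes of the list, pvalb1 (-0.38, adjusted p = 0.0615) and pvalb2 (-0.23, adjusted p = 0.211), did not pass.

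Other skeletal muscle genes were lower in the same libraries. Of 37 tested sarcomere genes 15 fell and 1 rose, where 6.65% and 7.78% of all tested genes did. The sarcomere list had a median log2 fold change of -0.31 and a range from -0.94 to 0.78. The sarcomere genes with the smallest p were the titin genes ttn.1 (-0.64, adjusted p = 0.000341) and ttn.2 (-0.59, adjusted p = 0.000470), the actinin gene actn3a (-0.68, adjusted p = 0.000798) and the myosin light chain gene mylz3 (-0.53, adjusted p = 0.00157). The summed level of the list was 69717 to 78993 CPM in controls and 56490 to 61429 CPM at 10 µM, without overlap. The 12 fast fibre genes were not further genes, since all were in the sarcomere list except tnnc2, which was counted among the calcium-binding proteins. Of these 12, 3 fell and 0 rose (6 at an unadjusted p of 0.05), with a median of -0.23. Those that fell were actn3a and tnnc2, named above, and mylpfa (-0.57, adjusted p = 0.0131). Of 11 slow fibre genes 0 passed edgeR's test (4 at an unadjusted p of 0.05), with a median of -0.02. Those 4 went both ways, with tnni1c (-0.46), mybpc1 (-0.32) and prox1a (-0.32) lower and tnnt1 (0.38) higher. The summed level of the slow fibre list was 2059 to 2177 CPM in controls and 1996 to 2186 CPM at 10 µM.

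**Figure D5:**
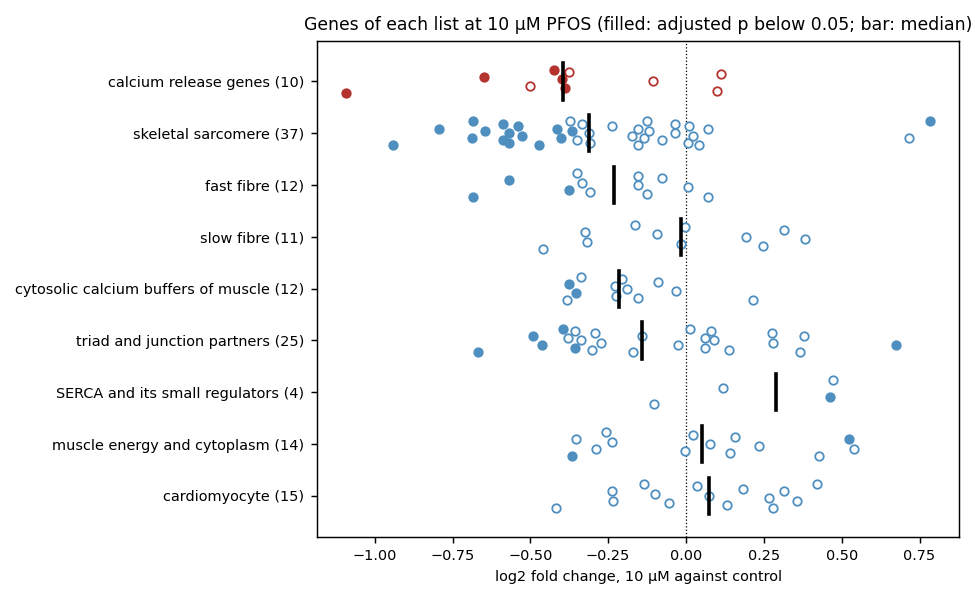
Log2 fold change at 10 µM against control (x axis) of each tested gene of the calcium release group and of 8 muscle gene lists (rows, with the number of tested genes); filled points passed an adjusted p of 0.05 and the bar is the median. The point furthest left is casq1a, and the medians of the calcium release genes (-0.39) and of the sarcomere list (-0.31) lie left of those of the slow fibre (-0.02) and cardiomyocyte (0.07) lists. Every fast fibre gene is also drawn in the sarcomere row or, for tnnc2, in the calcium buffer row.

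To read each member beside other skeletal muscle genes of the same library, its log2 count was taken relative to the median of the 37 sarcomere genes. On this scale casq1a was at -1.18, -0.88 and -1.07 in controls and at -1.88, -1.90 and -1.75 at 10 µM, with the other 9 libraries between -1.28 and -0.72. The 10 µM libraries of casq1a again lay below all 12 others, with a difference of -0.80 from control (exact permutation p = 0.1, the smallest possible) and of -0.84 from the other 4 groups (exact permutation p = 0.0022, adjusted over the 10 members 0.022). It was the only member to pass the adjustment on this scale, in the test that pools the 4 other dose groups as exchangeable libraries. With summed sarcomere counts as the reference, atp2a1 passed too. In CPM the 10 µM libraries of casq1a already lay below all 12 others, so this test is not separate support. Without any one of the 10 µM libraries 0 members passed, since 2 against 12 libraries have too few splits, and the difference for casq1a was then -0.82 to -0.89. The difference from the other 4 groups was -0.28 for cacna1sb (exact permutation p = 0.0132, adjusted 0.0659), -0.21 for ryr1b (exact permutation p = 0.0264, adjusted 0.0824) and -0.15 for ryr3 (exact permutation p = 0.152, adjusted 0.253). For casq1b it was -0.14 (exact permutation p = 0.0945, adjusted 0.189). For casq2 it was -0.06 (exact permutation p = 0.613, adjusted 0.613) and for cacna1sa -0.12 (exact permutation p = 0.510, adjusted 0.567). The pump genes had 0.10 for atp2a1 (exact permutation p = 0.268, adjusted 0.335) and 0.26 for atp2a1l (exact permutation p = 0.193, adjusted 0.276). For ryr1a it was 0.40 (exact permutation p = 0.0330, adjusted 0.0824), with 10 µM libraries at -2.05, -2.23 and -2.16 and controls at -2.33, -2.70 and -2.48. The other 4 groups include the 5 µM libraries of ryr1a, at -2.82, -2.45 and -3.15. The sarcomere list itself had a median log2 fold change of -0.31 at 10 µM, so an unchanged gene lies higher on this scale. In CPM, ryr1a had a log2 fold change of 0.10 from control (edgeR adjusted p = 0.673).

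Some members are also expressed outside skeletal muscle. Of 15 cardiomyocyte genes 0 passed at 10 µM by edgeR (2 at an unadjusted p of 0.05), with a median of 0.07, and the summed level was 573 to 658 CPM in controls and 555 to 630.4 CPM at 10 µM. Of 11 pan-neuronal genes 3 fell and 0 rose, with a median of -0.22, among them tuba1c (-0.62, adjusted p = 0.00506) and snap25a (-0.30, adjusted p = 0.0342), and the summed level was 2259 to 2400.3 CPM in controls and 1826 to 1958 CPM at 10 µM. Of 10 neuronal calcium genes 1 fell, the inositol trisphosphate receptor gene itpr1a (-0.45, adjusted p = 0.0262), with a median of 0.04. Of 11 genes listed for muscle progenitors 1 fell (the desmin gene desmb, -0.46, adjusted p = 0.00406) and 1 rose (mymk, the myoblast fusion gene, 0.80, adjusted p = 0.0458). From that list pax3a, pax7a, pax7b, myod1 and myf5 did not pass edgeR's test (adjusted p of 0.241 to 0.805). Of 14 genes of muscle energy metabolism 1 fell (ckmb, -0.36, adjusted p = 0.0346) and 1 rose (aldoaa, 0.52, adjusted p = 0.0168). Single calls in lists of 10 to 14 genes are near the shares of all tested genes, 6.65% lower and 7.78% higher. The part of the lower neuronal and sarcomere levels in the values of the members, including ryr3, was not tested.

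Across the 15 libraries the members did not vary as a single block. The log2 CPM of ryr1b and ryr3 had a Pearson r of 0.94, which was 0.79 over the 12 libraries without the 10 µM group. The pair casq1a and casq1b had an r of 0.84 over all 15 libraries and 0.50 over those 12, and atp2a1l ran against cacna1sb, with an r of -0.64 over 15 and -0.85 over 12. Outside the members, the genes most like casq1a among 16441 searched were egfl6 (r = 0.98), parvb (0.97), myoz1b (0.96), hacd1 (0.95) and krt18a.2 (0.95). Over the 12 libraries below 10 µM these were 0.93, 0.88, 0.80, 0.82 and 0.78. Their choice used the 10 µM libraries, so their lower levels there are no separate result. The log2 difference at 10 µM was -0.93 for egfl6 and -0.66 for myoz1b, which encodes a Z-disc protein. These correlations are descriptions over libraries that share the dose groups.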

How the data were processed

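Estimated counts per gene and per transcript and RPKM values were deposited by the authors for 15 whole-larva RNA-seq libraries, per the file headers. The sources used here name no aligner, counting tool, genome build or use of strand. Columns were matched to samples by group and number, except that the 10 µM columns carry other numbers than the titles and were assigned to the group only. Of the columns of per-library values, 18 in the gene table and 30 in the transcript table were not used. The authors' estimated counts were whole numbers and were scaled by TMM, and levels are CPM on those library sizes. The authors' RPKM values of the 12 libraries matched to a sample served only to recover gene lengths, and levels are compared between genes as CPM per kb of that length. Depth was 11956657 to 19978125 counts a library, and a coefficient of variation of about 13% was fitted between libraries.

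In R 4.3.3, edgeR (version 4.0.16) quasi-likelihood models of 5 group means were fitted over the 15 libraries to all genes that passed filterByExpr. Tests were two-sided, with Benjamini-Hochberg adjustment over all tested genes or transcripts and a threshold of 0.05. Adjusted p-values of single genes come from this model. SE is the absolute log2 fold change over the square root of F, and 95% intervals use the t distribution on the model's degrees of freedom. Ratios used a pseudocount of 0.5 and exact permutation tests. The scripts were tested on simulated data. In these, 66 or 67 genes drawn at random from all tested genes were changed at each size of change. In the comparisons of each dose with control, 22.4% to 34.3% of changes of 1.5-fold were called. For changes of 2-fold it was 70.15% to 77.61%, and for 3-fold 83.33% to 89.39%. A gene that was not called may therefore still differ. The data at 10 µM had far more called genes, 3098, so these shares may not hold for that comparison. Nor may they hold for the members, which ranked from 5 (atp2a1) to 7517 (cacna1sa) of 21477 genes by mean CPM.

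All members were named, with up to 4 genes of smallest p from each list and the 5 genes most correlated with the member of largest change (mean of at least 1 CPM). Where a symbol had several IDs, the one with the most counts was used. The members and lists were chosen with earlier results of these data known. Same-numbered libraries of control, 0.1 and 1 µM deviated together (correlations of 0.190 to 0.452 over genes), and the numbers come from the titles. At 5 µM, replicate 1 followed number 1 (0.304 to 0.395), but replicate 2 followed number 3 (0.113 to 0.315) and replicate 3 number 2 (0.170 to 0.230). The numbers of the 10 µM columns do not match those of their titles, so pairing was not checked at 10 µM. All tests of 10 µM were unpaired. Alternatives were DESeq2 (1.42.0) or its size factors, other filters, removal of a length trend, only the 2 groups compared, each library left out, another pseudocount or sarcomere reference, and a replicate block.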

Additional observations from a re-analysis of the deposited data

How the results depend on the processing

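The calls for casq1a, ryr1b, ryr3 and cacna1sb at 10 µM against control held under all 12 alternatives, with adjusted p of up to 0.0494. That for casq1b held under 7 of 12. Against control, 4 to 7 members passed at 10 µM under these alternatives and 0 at 5, 1 and 0.1 µM. Between 10 and 5 µM, casq1a held under all 12.

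Genes called at 10 µM against control numbered 1047 to 2560 with a library left out (1047 without 10 µM library 2, 1362 without control replicate 3). Against 5 µM they numbered 1092 to 3464, and members 1 to 4. With only the 2 groups fitted, 1807 genes and 1 member passed there, and 4042 genes passed at 10 µM against control (3098 in the main fit). In the F test, left-out libraries gave 186 to 2012 genes and 0 to 6 members (0 without 10 µM library 2 or 4). DESeq2 gave 2593 genes. Removal of the length trend gave 2 members and 1633 genes, where the main fit gave 1697 genes. At 5 µM, 1 gene was called without a filter, 12 by DESeq2 and 1 with the length trend removed.

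With the replicate block, 1 gene was called at 5 µM (12 libraries) and 1 at 1 µM (9 libraries, chosen after seeing the data). In its comparisons 0 members were called in the main fit or any alternative, so it had no member call to change. It left out the 10 µM libraries and cannot decide if pairing matters for the calls there. Over the 12 libraries it grouped by the numbers of the titles, which not all 5 µM libraries followed in their deviations. It therefore cannot decide if pairing matters for the members at 5 µM.

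Left-out libraries turned the sign of some uncalled values: atp2a1l at 10 µM, -0.00494 to 0.227 (the lowest without control replicate 2); at 5 µM casq1a (-0.22 to 0.18), atp2a1 (-0.0493 to 0.0632) and casq1b (-0.163 to 0.0222); cacna1sa at 10 against 5 µM (-0.29 to 0.17); and, for transcripts, atp2a1l-201 (-0.0313 to 0.204) and atp2a1-205 (-0.0771 to 0.148). Member transcripts passing numbered 1 to 6, for which no share of all transcripts is given. Relative to the sarcomere genes, 0 to 2 members passed with a library left out. With summed sarcomere counts as the reference 2 passed, casq1a and atp2a1, and casq2 differed by 0.0405 in place of -0.0587. The causes of these shifts were not tested. The member with the fewest counts was cacna1sa, with 198 to 405 a library.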
